A study of Rattus norvegicus with 12 samples.

Results

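Hippocampal arrays of adult male rats were chosen by and divided on their measured level of Ttr, the transcript of transthyretin, into 6 Ttr-high arrays with a log2 level above 8 and 4 Ttr-low arrays with a level below 8. The 10 arrays are those of the series' 12 that the submitters did not mark as failed in quality control. The division rests on a measured value and not on a condition of the study, so Ttr is described without a test and the other 9961 genes are compared with bred line as a covariate. The label under which these arrays were grouped, choroid-rich against choroid-poor, was only partly borne out by the other choroid plexus transcripts, as the values below show.

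The rats came from generation F4 of lines selectively bred on locomotor response to an unfamiliar place: bred High Responder (bHR) animals, bred for high activity, and bred Low Responder (bLR) animals, bred for low activity. All were males of postnatal day 102 to 107 with no treatment named in the labels, and RNA of the whole hippocampus of 1 rat was hybridised to each Affymetrix RAE230A array. The Ttr-high arrays were bHR replicates 3, 4, 5 and 6 and bLR replicates 2 and 4. The Ttr-low arrays were bHR replicate 2 and bLR replicates 1, 3 and 6. Line and Ttr level were thus not evenly crossed (Fisher's exact test of line by Ttr group, two-sided, p = 0.524), and the bHR line supplied 1 Ttr-low array. With line as a covariate, a difference between the Ttr groups fitted without bHR replicate 2 is therefore the difference within bLR alone.

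The choroid plexus is a folded epithelium over a core of vessels and fibroblasts that hangs in the brain ventricles and secretes cerebrospinal fluid. In the lateral ventricle it is attached beside the fimbria and runs along the hippocampus, so that pieces of it can stay on a dissected hippocampus. Its epithelial cells make transthyretin, a carrier of thyroid hormone and of retinol-binding protein, in very large amounts, together with ion transporters, tight junction claudins, folate receptor and secreted growth factor antagonists. Neurons and glia of the hippocampus hold little Ttr transcript. In RNA of a whole tissue, fewer cells of a type and less RNA per cell cannot be told apart.

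The promoters of Ttr and of Igfbp2, an insulin-like growth factor binding protein of the choroid plexus with one of the smallest p-values below, are shown because Ttr chose the arrays and Igfbp2 is the choroid transcript with the smallest p. Both are given 5′ to 3′ in a window of 300 bases that holds the gene start, as RefSeq has them in assembly GRCr8. They lie at chr18:12218508-12218807 (plus strand) and chr9:81864561-81864860 (plus strand). Capitals mark TAATC, the first 5 letters of TAATCC, a motif bound by homeodomain factors of the Otx family, on either strand, where GATTA is the other.
Ttr: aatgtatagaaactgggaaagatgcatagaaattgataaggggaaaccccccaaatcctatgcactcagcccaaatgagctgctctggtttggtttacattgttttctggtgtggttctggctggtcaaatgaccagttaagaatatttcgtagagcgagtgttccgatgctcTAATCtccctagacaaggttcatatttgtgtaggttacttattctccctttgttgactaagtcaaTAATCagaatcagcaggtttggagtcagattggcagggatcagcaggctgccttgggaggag
Igfbp2: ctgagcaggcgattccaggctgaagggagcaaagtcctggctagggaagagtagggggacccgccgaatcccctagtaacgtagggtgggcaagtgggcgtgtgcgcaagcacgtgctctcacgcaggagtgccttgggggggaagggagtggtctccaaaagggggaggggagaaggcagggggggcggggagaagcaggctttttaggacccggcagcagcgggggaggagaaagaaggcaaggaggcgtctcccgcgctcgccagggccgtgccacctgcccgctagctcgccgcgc

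The Ttr window holds 2 matches to TAATC and the Igfbp2 window holds 0. The whole TAATCC was in neither, in 1 of 24 promoters of the choroid list (Car14) and in 7.17% of 33469 promoters. TAATC was searched after TAATCC had been found absent from the Ttr window, and it was in 5 of the 24 choroid promoters (Car14, Kl, Prlr, Tmem72 and Ttr) and in 22.9% of all promoters. Promoters were found for 22 of the 29 measured choroid genes, some with more than 1 start. TAATCC contains TAATC, so the matches overlap.

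Ttr varied more between the 10 arrays than any other gene. The log2 level was 8.38 at the lowest, 10.47 at the median and 11.06 at the highest of the 6 Ttr-high arrays. It was 6.17 on bHR replicate 2, 5.34 on bLR replicate 1, 5.56 on bLR replicate 3 and 6.77 on bLR replicate 6. The means were 10.17 ± 0.99 (SD, n = 6) in Ttr-high and 5.96 ± 0.64 (SD, n = 4) in Ttr-low arrays, a gap of 4.21 on the log2 scale or 18.5-fold. The array nearest the limit from above was bHR replicate 3 (8.38) and the nearest from below was bLR replicate 6 (6.77), so no array lay between 6.77 and 8.38. From the lowest to the highest array Ttr spanned 5.72, or 52.7-fold. Its SD over the 10 arrays was 2.33, against 1.37 for Slc3a1, the gene with the next widest SD, and 0.096 for the median gene.

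**Figure D1:**
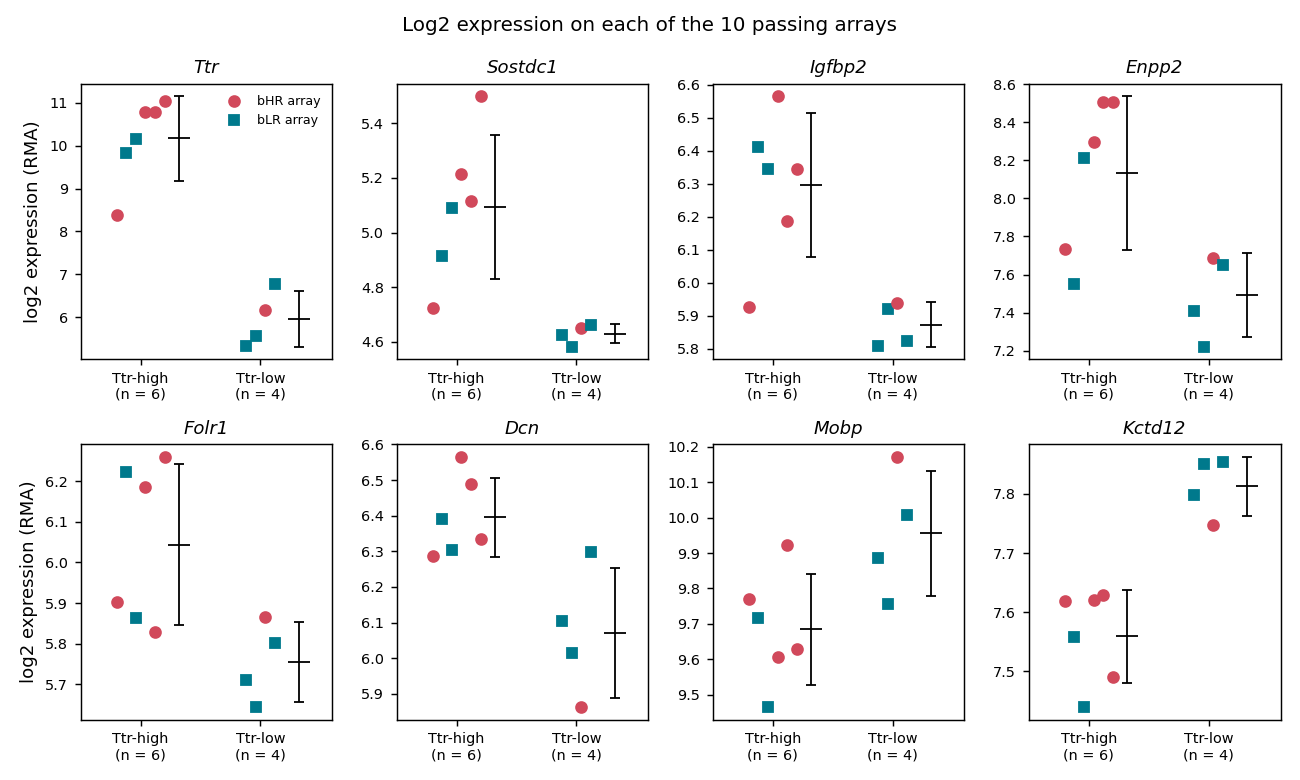
Log2 expression (y axis, RMA) of 8 genes on each of the 10 arrays, with the 6 Ttr-high arrays left of the 4 Ttr-low arrays; red circles are bHR and blue squares bLR, and the black mark and bar beside each group are its mean and SD. Sostdc1 and Kctd12 do not overlap between the groups, while Enpp2, Folr1, Igfbp2, Dcn and Mobp do.

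The 3 other transcripts that mark the choroid epithelium, Sostdc1, Enpp2 and Folr1, all averaged higher on the Ttr-high arrays, by far less than Ttr did, and none passed the test. Sostdc1, a secreted inhibitor of BMP and Wnt signalling, had log2 levels of 4.72 at the lowest, 5.10 at the median and 5.50 at the highest of the Ttr-high arrays. It was 4.65 on bHR replicate 2, 4.62 on bLR replicate 1, 4.58 on bLR replicate 3 and 4.66 on bLR replicate 6. All Ttr-high arrays lay above all Ttr-low arrays, and the Ttr-low arrays were close together. With line as a covariate, Sostdc1 differed by 0.42 in log2 units (SE 0.13), or 1.34-fold, with a 95% confidence interval of 0.13 to 0.72.

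Enpp2, autotaxin, is a secreted enzyme that produces lysophosphatidic acid, and oligodendrocytes express it as well. Its levels were 7.55 at the lowest, 8.26 at the median and 8.51 at the highest of the Ttr-high arrays, against 7.69 on bHR replicate 2, 7.41 on bLR replicate 1, 7.22 on bLR replicate 3 and 7.65 on bLR replicate 6. The groups overlapped through bLR replicate 4, the lowest Ttr-high array for this gene. The difference was 0.50 (SE 0.19), or 1.42-fold, with an interval of 0.08 to 0.93.

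Folr1, the folate receptor that carries folate into cerebrospinal fluid, had 5.83 at the lowest, 6.04 at the median and 6.26 at the highest of the Ttr-high arrays, against 5.87 on bHR replicate 2, 5.71 on bLR replicate 1, 5.64 on bLR replicate 3 and 5.80 on bLR replicate 6. The groups overlapped, since bHR replicate 2 lay above 2 of the Ttr-high arrays. The difference was 0.27 (SE 0.11), with an interval of 0.02 to 0.51, and was 0.16 without bLR replicate 4. The limma adjusted p over all genes was 0.99995 for each of the 3.

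The choroid plexus list holds 41 genes, 29 of them on the array, and the 28 other than Ttr mostly averaged slightly higher on the Ttr-high arrays. Of these 28, 23 had a higher and 5 a lower mean, 0 passed an adjusted p of 0.05, and the median difference was 0.065 on the log2 scale. Over all genes tested 53.1% had a higher mean and the median difference was 0.0044. At an unadjusted p under 0.05, limma gave 4 of the 28 higher (Igfbp2, Sostdc1, Enpp2 and Folr1) and 0 lower, where 1.59% of all genes were higher and 0.934% lower at that level. Without bHR replicate 2 the count of 4 was 1, and without bHR replicate 3 it was 7. Of all 9961 genes, 206 and 138 were higher at that level in these 2 fits, against 158 with all 10 arrays. Leaving out Enpp2, Sostdc1 and Folr1 too, 20 of 25 were higher, with a median of 0.054. Of these 25, 1 (Igfbp2) was higher at an unadjusted p under 0.05 with limma.

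Igfbp2 had the smallest p of the list. Its levels were 5.93 at the lowest, 6.35 at the median and 6.57 at the highest of the Ttr-high arrays, against 5.94 on bHR replicate 2, 5.81 on bLR replicate 1, 5.92 on bLR replicate 3 and 5.82 on bLR replicate 6. The groups overlapped only where bHR replicate 3, the Ttr-high array with the least Ttr, lay just under bHR replicate 2. The difference was 0.44 (SE 0.12), or 1.36-fold, with an interval of 0.19 to 0.70. Igf2, a growth factor that choroid epithelium and meninges secrete, differed by 0.17 (SE 0.081), with an interval of -0.01 to 0.35.

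Among the channels, transporters and junction proteins of the epithelium the differences were smaller. Cldn2, a pore-forming claudin of leaky epithelia, had 4.60 at the lowest, 4.62 at the median and 4.76 at the highest of the Ttr-high arrays, above the 4.51 to 4.56 of the Ttr-low arrays, and was the second member without overlap. Over all genes the groups did not overlap for 26 higher genes (0.261%) and 21 lower ones (0.211%). The difference of Cldn2 was 0.081 (SE 0.046). Slc13a4, a sulphate transporter, differed by 0.12 (SE 0.076), Slc12a2, a sodium, potassium and chloride cotransporter, by 0.13 (SE 0.17), Aqp1, the water channel of the apical membrane, by 0.055 (SE 0.058), and Kcne2, a potassium channel subunit, by 0.054 (SE 0.047). For each of these 4 the groups overlapped, and without bLR replicate 2 Kcne2 differed by 0.018.

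The remaining members went both ways. F5, coagulation factor V, differed by 0.20 (SE 0.097) and by 0.12 without bHR replicate 2. Htr2c, the serotonin receptor of choroid epithelium and of some neurons, differed by 0.23 (SE 0.19) and by 0.03 without bHR replicate 2. Msx1, a homeobox factor, differed by 0.11 (SE 0.054), Sulf1, a heparan sulphatase, by 0.075 (SE 0.039), and Kl, the FGF23 co-receptor klotho, by 0.044 (SE 0.051). Without bLR replicate 2 Msx1 differed by 0.057. Calml4, a calmodulin-like protein, had the lowest difference, -0.085 (SE 0.075), which was 0.017 without bHR replicate 2, and Lbp, Cab39l, Cldn3 and Spint2 lay between -0.067 and -0.020.

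The signal was low for much of the list. For 11 of the 28 genes the mean over the 10 arrays was in the lowest 25% of all genes. Their median difference was 0.044, against 0.109 for the other 17. Of the 11, 10 were higher on the Ttr-high arrays, and of the other 17, 13 were. The mean level of the 28 genes was 5.39 at the lowest, 5.48 at the median and 5.60 at the highest of the Ttr-high arrays and 5.34 to 5.42 on the Ttr-low arrays. These ranges overlapped, again through bHR replicates 3 and 2.

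**Figure D2:**
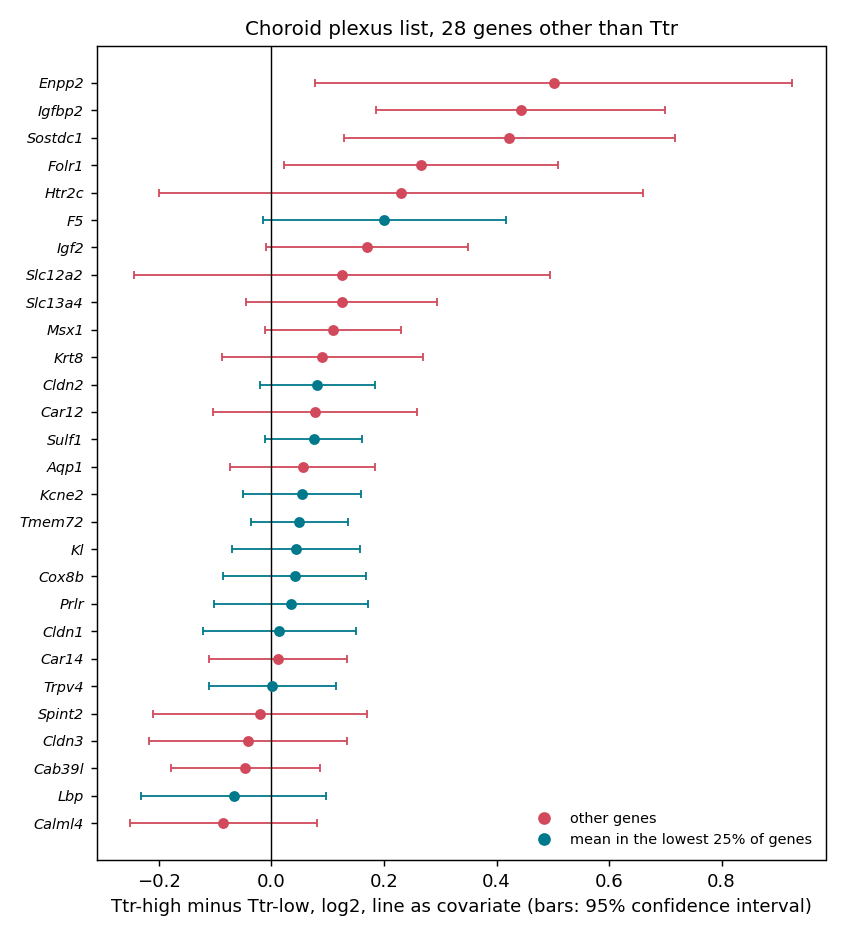
Difference of Ttr-high minus Ttr-low arrays on the log2 scale (x axis) for the 28 choroid list genes other than Ttr (rows), fitted with line as a covariate, with 95% confidence intervals; blue marks genes whose mean is in the lowest 25% of all genes and red the others. The intervals of 4 genes, Enpp2, Igfbp2, Sostdc1 and Folr1, lie above 0, and none lies below.

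The search over all genes asked which transcripts followed Ttr. No gene passed (0 of 9961, 0% at an adjusted p of 0.05 with limma), 0 passed 0.10, and the smallest adjusted p was 0.99995. At an unadjusted p under 0.05 there were 251 genes (2.52%), 158 higher and 93 lower on the Ttr-high arrays. This is below the share of 0.05 that such a limit gives on average where no gene differs. The count of 251 was 725 without bLR replicate 3 and 426 without bLR replicate 4, with 0 passing in either. A difference under 0.2 in size (log2 scale) was found for 9689 genes (97.3%) and one over 0.5 for 11, and the 95% confidence interval lay within 1 of 0 for 9925 (99.6%).

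The 20 genes with the smallest p among those higher on the Ttr-high arrays differed by 0.15 to 0.52, and 2 of them, Igfbp2 and Sostdc1, are in the choroid list. Tmtc1, a mannosyltransferase of the endoplasmic reticulum, stood first. Its levels were 6.45 at the lowest, 6.78 at the median and 6.98 at the highest of the Ttr-high arrays, against 6.02 on bHR replicate 2, 6.33 on bLR replicate 1, 6.52 on bLR replicate 3 and 6.42 on bLR replicate 6. The groups overlapped through bLR replicate 3. The difference was 0.52 (SE 0.11), or 1.44-fold.

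Dcn, decorin, a matrix proteoglycan of fibroblasts in the meninges and the choroid stroma, had 6.29 at the lowest, 6.36 at the median and 6.57 at the highest of the Ttr-high arrays, against 5.86 on bHR replicate 2, 6.11 on bLR replicate 1, 6.02 on bLR replicate 3 and 6.30 on bLR replicate 6. The groups overlapped, since bLR replicate 6 lay above bHR replicate 3. Dcn differed by 0.35 (SE 0.094), and by 0.21 without bHR replicate 2, the lowest array, which is the difference within bLR alone. Tshz2, a zinc finger transcription factor, did not overlap: 5.70, 5.84 and 6.26 at the lowest, median and highest of the Ttr-high arrays stood against 5.54, 5.43, 5.59 and 5.64 on bHR replicate 2 and bLR replicates 1, 3 and 6. It differed by 0.36 (SE 0.12).

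Lrp4, a receptor for agrin that also binds the Sostdc1 protein in mouse, differed by 0.18 (SE 0.057), also without overlap. Its levels were 4.88 at the lowest, 5.00 at the median and 5.08 at the highest of the Ttr-high arrays, and at most 4.87 on the Ttr-low arrays. The mitochondrial proteins Mrpl42, of the large ribosomal subunit, and Ndufs8, of complex I, differed by 0.26 (SE 0.072) and 0.29 (SE 0.089). Mrpl42 differed by 0.17 without bLR replicate 4 and Ndufs8 by 0.18 without bHR replicate 2. Grm4, a metabotropic glutamate receptor of neurons, differed by 0.15 (SE 0.049), and by 0.095 without bHR replicate 2. Lrrc75a and Nap1l5 are described with the slopes below. Another 8 of the 20 lay between 0.17 and 0.31: Zfp672, a zinc finger protein, Ppih, a cyclophilin of the spliceosome, Cenps, a centromere protein, Trmt112, a partner of methyltransferases, Gls2, a glutaminase, Ifitm2, an interferon-induced membrane protein, Ttc9b, and Mapre2, which binds microtubule ends. Without bHR replicate 2 Ifitm2 differed by 0.12, Trmt112 by 0.11 and Zfp672 by 0.11.

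The 10 genes with the smallest p among those lower on the Ttr-high arrays differed by -0.15 to -0.35, and 0 are in the choroid list. Uxt, a prefoldin-like chaperone, had the smallest p of all genes: 4.95, 5.03 and 5.05 at the lowest, median and highest of the Ttr-high arrays, against 5.23 on bHR replicate 2, 5.21 on bLR replicate 1, 5.29 on bLR replicate 3 and 5.12 on bLR replicate 6. The groups did not overlap. The difference was -0.22 (SE 0.046).

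Kctd12, an auxiliary subunit of GABA-B receptors, was also without overlap. Its levels were 7.44 at the lowest, 7.59 at the median and 7.63 at the highest of the Ttr-high arrays, against 7.75 on bHR replicate 2, 7.80 on bLR replicate 1, 7.85 on bLR replicate 3 and 7.85 on bLR replicate 6. The difference was -0.26 (SE 0.056). Sos1, an exchange factor that activates Ras, differed by -0.22 (SE 0.052) and Nmt1, which attaches myristate to proteins, by -0.32 (SE 0.091), both without overlap. Without bHR replicate 2, its highest array, Nmt1 differed by -0.15.

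Calb1, the calcium-binding protein calbindin of granule cells and some other hippocampal neurons, differed by -0.28 (SE 0.066). Its levels were 7.49 at the lowest, 7.81 at the median and 7.87 at the highest of the Ttr-high arrays, against 7.99 on bHR replicate 2, 7.72 on bLR replicate 1, 7.85 on bLR replicate 3 and 7.99 on bLR replicate 6, which overlap. Mobp, a myelin protein, differed by -0.35 (SE 0.090). The vesicle fusion proteins Stx6 and Ykt6 differed by -0.20 (SE 0.051) and -0.28 (SE 0.083), Uqcc4, an assembly factor of complex III, by -0.15 (SE 0.044) and Armcx5 by -0.19 (SE 0.051).

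A fit on the log2 level of Ttr itself, with line as a covariate, placed Sostdc1 and Enpp2 nearer the top than the division at 8, where they had ranks 28 and 112 by p, again with 0 genes passing (0%; smallest adjusted p 0.931). Sostdc1 had rank 1, with a slope of 0.12 on the log2 scale per log2 unit of Ttr (SE 0.021). Igfbp2 had rank 3 with 0.11 (SE 0.021) and Enpp2 rank 4 with 0.15 (SE 0.031). Outside the choroid list, Nap1l5 had rank 2 with 0.080 (SE 0.014), Dcn rank 5 with 0.084 (SE 0.019) and Uxt rank 6 with -0.048 (SE 0.011). Slc17a6, of the thalamus and habenula list described below, had rank 7 with 0.065 (SE 0.015). Folr1 had rank 44 with 0.066 (SE 0.023). In this fit 8 of the 28 choroid genes had an unadjusted p under 0.05 in the higher direction and 0 in the lower, beside 1.5% and 0.743% of all genes.

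Pearson's r with Ttr over the 10 arrays, after removal of the line means, was used only to pick the 5 genes whose pattern was most like that of Ttr: Nap1l5, Sephs1, Sostdc1, Lrrc75a and C18h18orf54. The arrays fall into separate clusters by Ttr, so r itself is not given. Nap1l5, an imprinted member of the nucleosome assembly protein family, had 8.14 at the lowest, 8.38 at the median and 8.47 at the highest of the Ttr-high arrays. It was 7.99 on bHR replicate 2, 7.96 on bLR replicate 1, 8.07 on bLR replicate 3 and 8.30 on bLR replicate 6. Its slope was 0.080 per log2 unit of Ttr (SE 0.014), the second smallest p of all genes. Lrrc75a did not overlap, with 5.00, 5.10 and 5.17 at the lowest, median and highest of the Ttr-high arrays and at most 4.98 on the Ttr-low arrays, and had a slope of 0.041 (SE 0.011). The slopes of Sephs1, a selenophosphate synthetase homologue, and of C18h18orf54 were 0.025 (SE 0.0090) and 0.0096 (SE 0.0082).

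**Figure D3:**
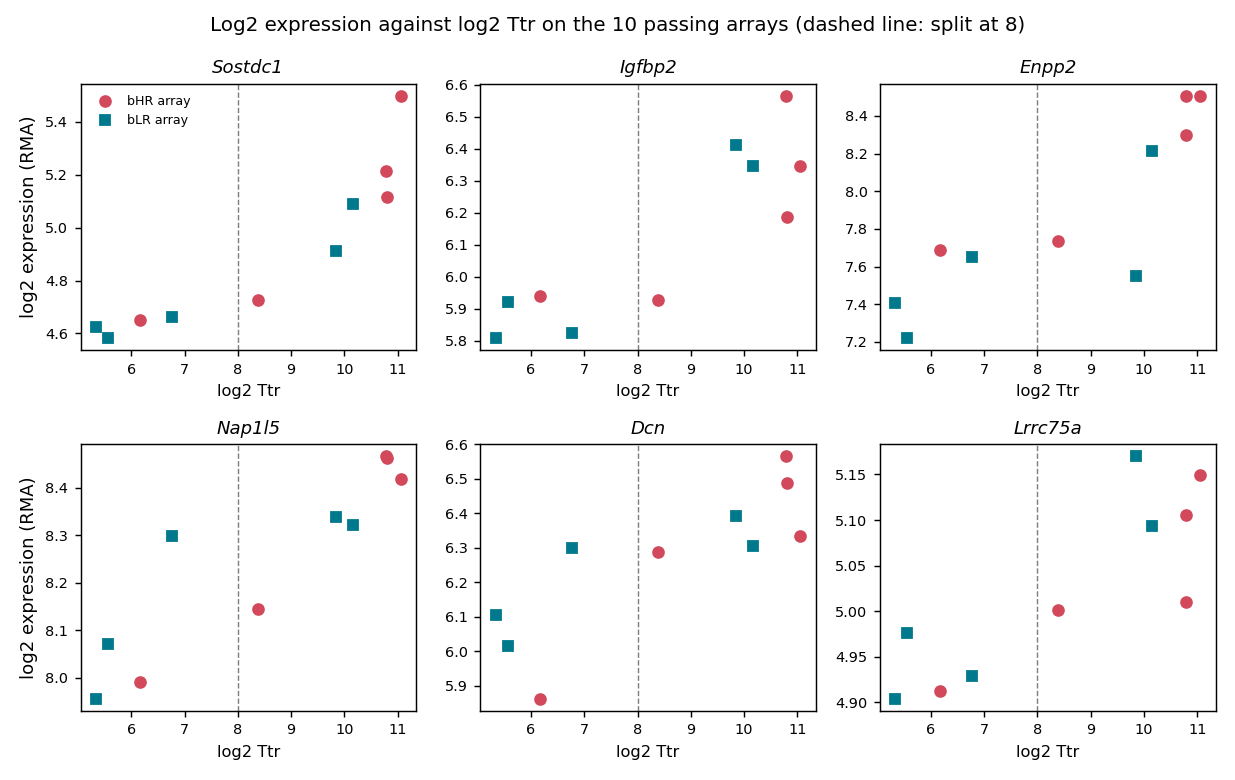
Log2 expression of 6 genes (y axes, RMA) against the log2 level of Ttr (x axis) on the 10 arrays, with red circles for bHR and blue squares for bLR and a dashed line at the division at 8. Sostdc1 runs between 4.72 and 5.50 on the arrays right of the line and between 4.58 and 4.66 on those left of it; bHR replicate 3, just right of the line, lies near the Ttr-low arrays for Sostdc1, Igfbp2 and Enpp2.

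The other lists cover further cell types that the dissected piece could hold, and none held a gene that passed. Over all genes 53.1% had a higher mean. At an unadjusted p under 0.05 with limma, 1.59% of all genes were higher and 0.934% lower. Meningeal and fibroblast genes were higher for 17 of 23, with a median of 0.038, and Dcn was the 1 at an unadjusted p under 0.05. Their mean level was 5.28 to 5.38 on the Ttr-high and 5.27 to 5.32 on the Ttr-low arrays, and Ptgds, prostaglandin D synthase of the meninges and choroid, differed by 0.17 (SE 0.12), and by 0.064 without bLR replicate 3. The part of meningeal tissue in the Dcn and Igfbp2 differences was not tested. Genes of the ciliated ependyma that lines the ventricle were higher for 3 of 7, with a median of -0.010, and Foxj1, their master regulator, differed by -0.040 (SE 0.044), and by -0.0055 without bHR replicate 2.

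Of the processes of the epithelium, genes for fluid secretion and ion transport were higher for 14 of 22 (median 0.036) and those for thyroid hormone and retinoid transport for 12 of 20 (median 0.0048). The retinoid list included Rbp4, the plasma retinol carrier that binds transthyretin, with -0.070 (SE 0.048), Slco1a5, an organic anion transporter, with 0.10 (SE 0.049) and Rarb, a retinoic acid receptor, with 0.092 (SE 0.042), or 0.060 without bLR replicate 4. Genes of metal, vitamin and nutrient handling were higher for 14 of 20 (median 0.017), of IGF, prolactin and other secreted factors for 18 of 27 (median 0.035) and of epithelial junctions and keratins for 11 of 18 (median 0.026). Apart from the thyroid hormone and retinoid list, these lists share members with the choroid list and are not separate from it. The secretion list shares Slc12a2, Car12, Aqp1, Kcne2 and Car14, and the nutrient list Folr1 and Slc13a4. The secreted factor list shares Igfbp2, Igf2, Sostdc1 and Prlr, and the junction list Cldn1, Cldn2, Cldn3, Krt8 and Spint2.

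Oligodendrocyte genes had the lowest median of the 16 lists, -0.083, with 12 of 20 lower. Of the 20, 1 (Mobp) was lower at an unadjusted p under 0.05 with limma, beside 0.934% of all genes. Mobp had 9.46 at the lowest, 9.67 at the median and 9.92 at the highest of the Ttr-high arrays, against 10.17 on bHR replicate 2, 9.89 on bLR replicate 1, 9.76 on bLR replicate 3 and 10.01 on bLR replicate 6. The groups overlapped. Mbp, a further myelin gene, differed by -0.19 (SE 0.13) and Olig1, a lineage factor, by 0.20 (SE 0.13). Without bHR replicate 2 Mbp differed by -0.014, and without bLR replicate 2 Olig1 differed by 0.073. The mean level of the oligodendrocyte list was 7.65 to 7.90 on the Ttr-high and 7.66 to 7.98 on the Ttr-low arrays.

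Neuronal lists gave no common direction. Genes of pyramidal and granule neurons were lower for 12 of 21 (median -0.024). Genes of interneurons were higher for 10 of 16 (median 0.020), where Gad1, a GABA-synthesizing enzyme, differed by -0.26 (SE 0.096), and by -0.17 without bLR replicate 2, and Slc32a1, the vesicular GABA transporter, by 0.18 (SE 0.11), and by 0.091 without bLR replicate 2. Genes of the thalamus and habenula, which adjoin the choroid fissure, were higher for 6 of 13 (median -0.014). Their gene with the smallest p, Slc17a6, the vesicular glutamate transporter of the thalamus, had 5.42 at the lowest, 5.65 at the median and 5.80 at the highest of the Ttr-high arrays, against 5.29 to 5.64 on the Ttr-low arrays. It differed by 0.22 (SE 0.088), and by 0.14 without bHR replicate 2.

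Astrocyte genes were lower for 11 of 19 (median -0.021), with -0.40 (SE 0.22) for Slc1a3, a glutamate transporter, and 0.28 (SE 0.16) for Gpr37l1. Without bLR replicate 2 these were -0.22 and 0.18. Genes of microglia and macrophages were higher for 11 of 22 (median -0.0035), of endothelium and pericytes for 9 of 22 (median -0.018) and of blood cells for 6 of 13 (median -0.0086). Laptm5, a lysosomal protein of microglia, differed by -0.22 (SE 0.099), and by -0.033 without bHR replicate 2.

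**Figure D4:**
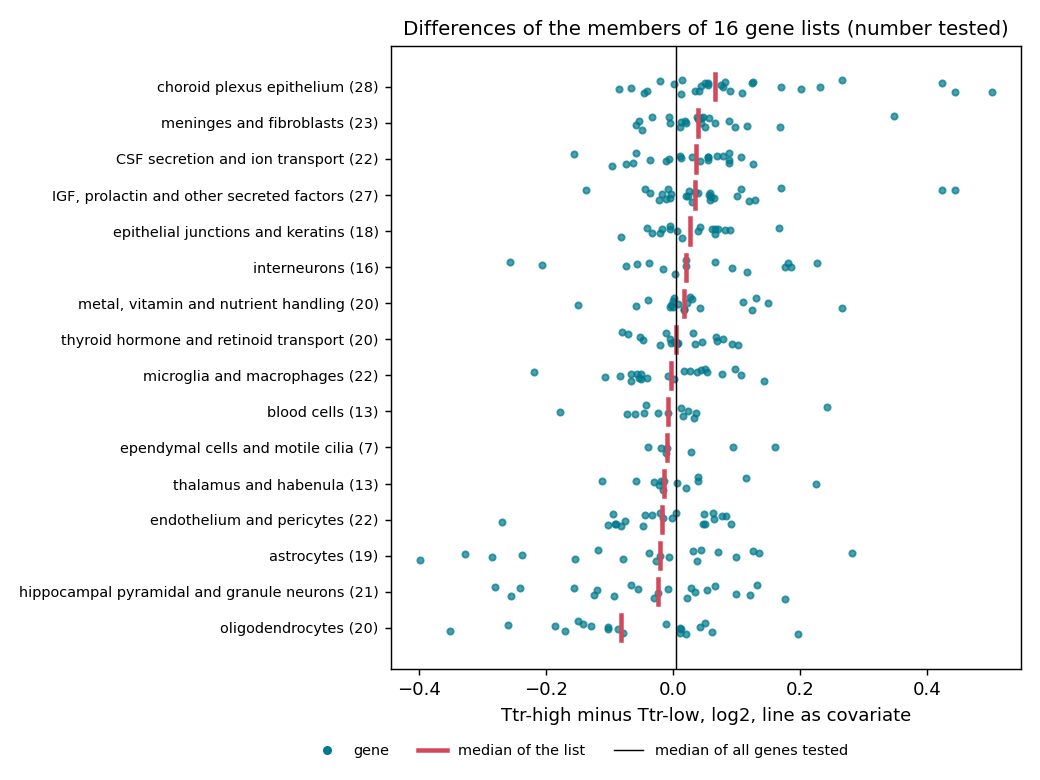
Difference of Ttr-high minus Ttr-low arrays on the log2 scale (x axis) for each tested member of 16 gene lists (rows, with the number tested), as blue points with a small vertical scatter; red bars are list medians and the black line is the median of all genes, 0.0044. The choroid plexus list has the highest median, 0.065, and the oligodendrocyte list the lowest, -0.083.

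Within bHR 21 of the 28 choroid genes were higher on the Ttr-high arrays, where 42.5% of all genes were. Within bLR 25 were higher, where 60.2% of all genes were, against 23 with both lines, where 53.1% of all genes were. The bHR line has 1 Ttr-low array and no spread of its own there. The bLR differences are the same as those of the fit without bHR replicate 2. Sostdc1, Igfbp2, Enpp2, Folr1 and Dcn were higher in each line. Sostdc1 averaged 5.14 on the 4 Ttr-high and 4.65 on the 1 Ttr-low array of bHR, and 5.00 on the 2 Ttr-high and 4.62 on the 3 Ttr-low arrays of bLR. Igfbp2 differed by 0.32 in bHR and 0.53 in bLR, Enpp2 by 0.57 and 0.45, Folr1 by 0.18 and 0.32, and Dcn by 0.56 and 0.21. Tmtc1 differed by 0.66 in bHR and 0.43 in bLR, and Uxt by -0.19 and -0.24.

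The test of whether the difference itself differed between the lines passed for 0 genes (0%, smallest limma adjusted p 0.99993). An unadjusted p under 0.05 was found for 358 (3.59%), again below the share of 0.05 that the limit gives where no gene differs. The 5 genes with the smallest p were Grsf1, an RNA-binding protein of mitochondria, Specc1, Anxa2, a membrane-binding annexin, Txndc17, a thioredoxin-like protein, and Eml3, a microtubule-binding protein. Grsf1 differed by 0.29 in bHR and -0.45 in bLR, and Anxa2 by -0.47 in bHR and 0.058 in bLR. Specc1, Txndc17 and Eml3 had negative differences in bHR (-0.22, -0.23 and -0.22) and positive ones in bLR (0.23, 0.29 and 0.30). The bHR side of all 5 rests on bHR replicate 2.

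Signs of RNA quality overlapped between the groups. The signal of the beta-actin 5' control probe set minus that of the 3' set, which falls as RNA or its copying is cut short, was -1.95 ± 0.56 on the Ttr-high (SD, n = 6) and -2.03 ± 1.09 on the Ttr-low arrays (SD, n = 4), which differ by 0.078 (p = 0.9 by a two-sided exact permutation test). The difference was 0.14 for GAPDH (two-sided exact permutation test, p = 0.743) and -0.099 for dap, a bacterial control RNA (two-sided exact permutation test, p = 0.805). Adjusted over these 3 relations each p was 0.9, and the smallest p that the 210 splits allow is 0.0048. The deepest loss was on bLR replicate 3 among the Ttr-low arrays and on bLR replicate 2 and bHR replicate 6 among the Ttr-high arrays. Without bLR replicate 3 the beta-actin difference was -0.46.

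**Figure D5:**
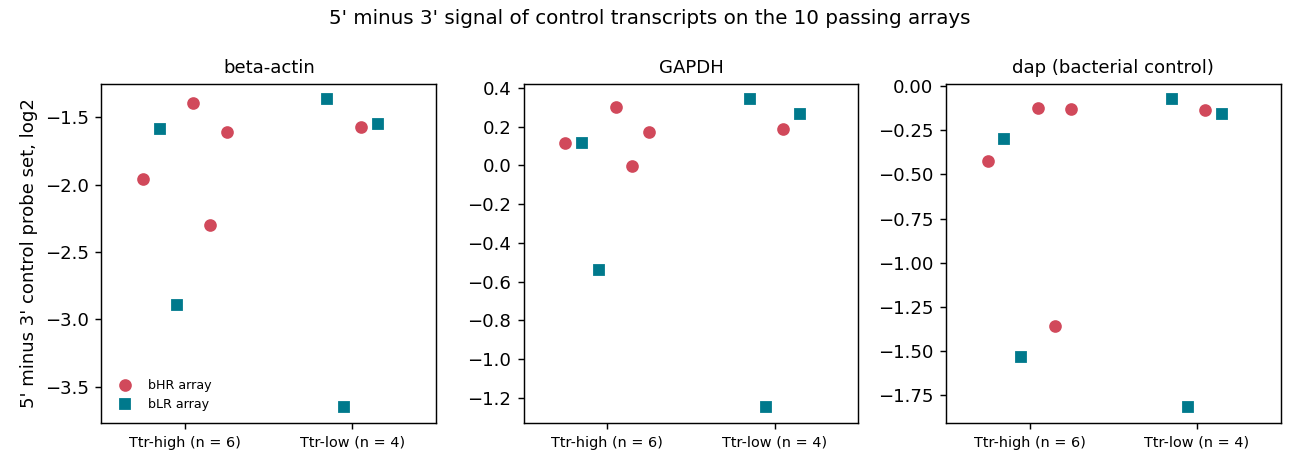
Signal of the 5' minus the 3' control probe set on the log2 scale (y axes) for beta-actin, GAPDH and dap on the 10 arrays, with the 6 Ttr-high arrays left of the 4 Ttr-low arrays, each group ordered by Ttr; red circles are bHR and blue squares bLR. The beta-actin values lie between -2.89 and -1.39 on the Ttr-high and between -3.65 and -1.36 on the Ttr-low arrays.

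Without the 3 arrays named above, 24 of the 28 choroid genes were higher, with a median of 0.063, beside 49.6% of all genes. When the beta-actin value was added to the model 1 gene passed: Eps15, an endocytic adaptor named after its values were seen, with -0.52 (SE 0.057, limma adjusted p = 0.0215), against -0.66 (limma adjusted p = 0.99995) without the covariate.

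Activity in an unfamiliar place, the trait the lines were bred for, was read beside the groups within each line. In bHR the rats of the Ttr-high arrays made 1236, 1178, 1319 and 1328 beam breaks on replicates 3, 4, 5 and 6, and the rat of the Ttr-low array made 1219. In bLR the rats of the Ttr-high arrays made 495 and 362 on replicates 2 and 4, and those of the Ttr-low arrays made 503, 319 and 557 on replicates 1, 3 and 6. The ranges overlapped in both lines, and these scores were not tested against Ttr.

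The 2 arrays marked as failed, bHR replicate 1 and bLR replicate 5, had Ttr levels of 5.69 and 6.18, which would place them among the Ttr-low arrays. Their other choroid transcripts did not go the same way: Folr1 was 7.35 and 6.60, above the highest passing array (6.26), Enpp2 was 6.15 and 6.20, below the lowest (7.22), and Sostdc1 was 5.13 and 4.86, within the range of 4.58 to 5.50. Their mean Pearson r with the passing arrays over genes was 0.683 and 0.899. With these 2 arrays in the fit, 12 of the 28 choroid genes were higher, beside 47.7% of all genes, and the choroid median was -0.063.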

How the data were processed

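Hippocampal RNA of 12 rats was read on Affymetrix RAE230A arrays. The authors deposited log2 values from RMA (background correction, quantile normalization and probe summarization), run in affy 1.54.0 according to the submitters' processing notes. Per the series' design text, probes were grouped into 1 probe set per Entrez gene by a custom definition of major version 19. Detection calls and single probes were not used here. Of 10019 probe sets, 57 controls were left out of the tests, which leaves 9962 genes, 9848 of them named (9831 through RefSeq, assembly GRCr8) and 114 unnamed but tested. All 12 columns were matched to samples. Arrays have no read depth; their number limits the precision.

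Line came from the labels, replicates are numbered in accession order, and nothing beyond 1 rat per array is stated on litters, so p-values measure the spread between these rats. Ttr-high minus Ttr-low was fitted per gene by lmFit and eBayes of limma 3.58.1 (R 4.3.3) with line as a covariate, with Benjamini-Hochberg adjustment over all 9961 genes but Ttr and a threshold of 0.05. The slope on log2 Ttr and the interaction with line were fitted alike. The script was tested on simulated data. The division, the 16 gene lists and the tests were chosen with earlier results of these data known. Named genes are Enpp2, Sostdc1 and Folr1, the 20 higher and 10 lower genes with the smallest p, the 15 choroid members and up to 4 members of each other list with the smallest p, the 5 smallest interaction p and the 5 genes most like Ttr; some of these are not reported here. A difference is an average on the log2 scale, and RMA understates differences of dim genes. The numbers in the sample titles that both lines share among the passing arrays (9, 10 and 11) were checked for pairing. Arrays of the same number had correlations of deviations of -0.334, 0.263 and 0.409. Other pairs of arrays had -0.518 to 0.446, so these few pairs cannot show whether the numbers pair the arrays.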

Additional observations from a re-analysis of the deposited data

Results flagged for a closer look

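An array that stood apart from the rest of its Ttr group by Dixon's criterion was looked for in 198 groups of 4 or 6 arrays, of which chance alone gives about 1 in 20, and 15 were found. They are given as values on the log2 scale, without a cause. In the Ttr-low arrays 8 of them were at bHR replicate 2, the only bHR array of that group.

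On bHR replicate 2 the level was the lowest of the 4 Ttr-low arrays for Grm4 (4.83) and Grsf1 (7.84). It was the highest for Mrpl42 (7.70), Nmt1 (7.53), Rbp4 (5.17), Thra (7.41), Cd74 (5.01) and Anxa2 (6.27). Among the Ttr-low bLR arrays, replicate 3 was the highest for Gls2 (6.44) and the lowest for beta-actin 5' minus 3' signal (-3.65), and replicate 1 was the lowest for Cldn2 (4.51).

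Among the 6 Ttr-high arrays, bLR replicate 2 was the lowest for Stx6 (6.05) and the highest for Slc32a1 (5.71). bLR replicate 4 was the highest for Tmem72 (4.40) and bHR replicate 3 the lowest for Slco1a5 (4.50).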

How the results depend on the processing

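The count of genes that followed Ttr was 0 under 25 of 26 alternatives and 1 (Eps15) with a beta-actin covariate; it was 0 in each of the 10 fits that left out 1 array. At an unadjusted p under 0.05 the count of 251 genes lay between 189 and 725 in those 10 fits, and was 614 with all 12 arrays, 544 without the 3 arrays of lowest dap signal, 499 with the beta-actin covariate, 496 with array weights and 421 within bHR. The choroid median of 0.065 and the 23 of 28 higher members lay between 0.055 and 0.071 and between 20 and 25 when 1 array was left out; with all 12 arrays they were -0.063 and 12, and the 2 added arrays are those marked as failed. The difference in beta-actin 5' minus 3' signal lay between -0.46 and 0.30. The interaction with line passed for 0 genes in the 13 alternatives run, and could not be fitted without bHR replicate 2. Limiting the arrays to those above 9 or below 7 is the same fit as leaving out bHR replicate 3. The differences within bLR are the same as those without bHR replicate 2. The alternatives are thus not all separate checks. Of 99 named genes 54 kept their sign in every setting, 28 changed it only with all 12 arrays and 17 in another setting, and 0 passed in any; 152 of 2354 gene values moved by more than the residual SD. The fit without the 3 arrays of lowest dap signal was chosen after seeing the data.

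With the title number as a replicate block (block correlation 0.303), 0 genes passed and 488 had an unadjusted p under 0.05. The choroid median was then 0.057 with 22 of 28 members higher. Whether the numbers pair the arrays was not settled. Of the 28 choroid genes, 11 had low signal, and an effect of this on the differences was not tested.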
